A study of Mus musculus with 16 samples.

Results

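*Kit* and *Kitl*, the receptor and ligand of 1 signalling pair and 2 of the 30451 genes counted, were followed through the cell types of whole testes of mice at postnatal day 2. Kit encodes a receptor tyrosine kinase of the cell surface. Kitl encodes its ligand, also called stem cell factor, which is made as a membrane-anchored protein that can be cut to a soluble form. In the testis the pair is known for Sertoli cells that present the ligand to germ cells carrying the receptor, for the survival of primordial germ cells and the differentiation of spermatogonia, and for receptor in Leydig cells of the interstitium.

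Testes of the wild-type group and of the group labelled Ddx5 conditional knockout were dissociated with TrypLE, and single cells were captured with a droplet kit that primes at the 3′ end of each mRNA and tags it with a molecular barcode (unique molecular identifier, UMI). Floxed Ddx5 was deleted with Mvh-Cre, a recombinase driven by a germ cell promoter, and knockout males came from Ddx5+/- fathers and Ddx5 flox/flox mothers, so that somatic cells were not the target of the deletion. Transcripts of GFP, from an Oct4-GFP transgene that marks germ cells, and of CRE were counted beside the mouse genes. Labels number 8 samples for each genotype, but the barcodes in the table end in 1 of 2 suffixes and carry no sample number, so each genotype counts as 1 library.

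No test between the libraries was possible and no p-value is given. Suffix 3 was taken as wild type from the cell numbers in the methods. After filtering, CRE had 0 UMIs in the wild-type library and 20 in the other. Ddx5 went against the label in germ cells, with 1152 counts per 1000000 UMIs (CPM) in wild type and 1736 CPM in the other, which is therefore called the Ddx5 cKO-labelled library. Barcodes were kept from 2000 genes upward when mitochondrial UMIs did not exceed 10%, 6329 in wild type with a median of 11170 UMIs and 4950 in the Ddx5 cKO-labelled library with a median of 11668.5 UMIs. The libraries shared 12 barcode sequences.

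Cells were assigned by fixed limits on marker UMIs, called gates here. Sertoli cells had at least 3 Amh UMIs (2256 in wild type, 1635 in the Ddx5 cKO-labelled library). Leydig cells had at least 20 UMIs of Cyp11a1, Cyp17a1 and Hsd3b1 together (177 and 143 cells). Myoid cells had at least 5 Acta2 and 2 Myh11 UMIs (764 and 524 cells), and stroma had a Pdgfra UMI and at most 2 Amh UMIs (3590 and 3005 cells). Macrophages had at least 5 UMIs of the C1q genes (31 and 23 cells), and germ cells had at least 3 of Dazl, Ddx4, Mael and Stk31 (125 and 12 cells). Without the genes that set the gates, each gate still held the highest summed level of its own marker list in both libraries, from 4 to 7 genes a list. The gates overlap: 1152 of the 1288 myoid cells also passed the stroma gate, and 39 of the 137 germ cells also passed the Sertoli gate. Levels are therefore given over all cells of a gate and again over cells that passed no other gate. Intervals are 95% intervals for counting error only, exact Poisson for CPM, exact Clopper-Pearson for shares of cells and exact conditional binomial for ratios.

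Both genes are spliced into forms that differ within the protein, and the sequences at these sites are shown because the counts of this kit do not separate them. Kit lies on chromosome 5 (GRCm38, chr5:75574916-75656722, plus strand) and Kitl on chromosome 10 (chr10:100015630-100100416, plus strand). Kitl-201 and Kitl-202 differ by the sixth coding exon, chr10:100080857-100080940, of 84 bases, which codes for 28 residues with the cleavage site of the soluble ligand and is in capitals below. The Kit forms differ by 12 coding bases at the end of the ninth exon, chr5:75639147-75639158, which add 4 residues outside the cell and are in capitals. Each is drawn with 27 bases of coding sequence on either side, from the GENCODE M21 transcripts, 5′ to 3′.
Kitl-202: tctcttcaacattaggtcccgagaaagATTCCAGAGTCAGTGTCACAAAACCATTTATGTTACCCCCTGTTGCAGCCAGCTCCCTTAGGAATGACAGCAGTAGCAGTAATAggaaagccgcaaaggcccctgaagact
Kitl-201: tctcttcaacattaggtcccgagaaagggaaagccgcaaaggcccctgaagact
Kit-201: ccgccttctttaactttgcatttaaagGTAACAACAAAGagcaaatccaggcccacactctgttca
Kit-204: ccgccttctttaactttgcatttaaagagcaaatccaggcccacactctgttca
Kitl-201, which lacks the exon, codes for 245 residues and Kitl-202 for 273, and the Kit forms for 979 and 975. A further coding form in the annotation, Kitl-204, has 3 coding exons and 56 residues and is not drawn. All values below are sums over the forms of a gene.

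The ligand was highest in Sertoli cells, the somatic cells that enclose the germ cells. Kitl reached 241 CPM in wild-type Sertoli cells (interval 236 to 246, 8920 UMIs) and 228 CPM in the Ddx5 cKO-labelled library (222 to 233, 6587 UMIs). Leydig cells, the androgen-producing cells between the tubules, came next with 74.0 CPM (64.6 to 84.4) and 62.6 CPM (53.8 to 72.5). Sertoli cells thus held 3.26 times the Leydig level in wild type (2.85 to 3.74) and 3.63 times in the Ddx5 cKO-labelled library (3.13 to 4.24). Of 16001 genes with at least 100 UMIs, 17.6% were at least 2-fold higher in 1 gate than in the next in both libraries, and 2.42% were so in Sertoli cells, Kitl among them. Sertoli cells were 35.6% of wild-type cells and held 86.9% of Kitl UMIs, and they were 33.0% of cells with 87.9% of Kitl UMIs in the Ddx5 cKO-labelled library.

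**Figure D1:**
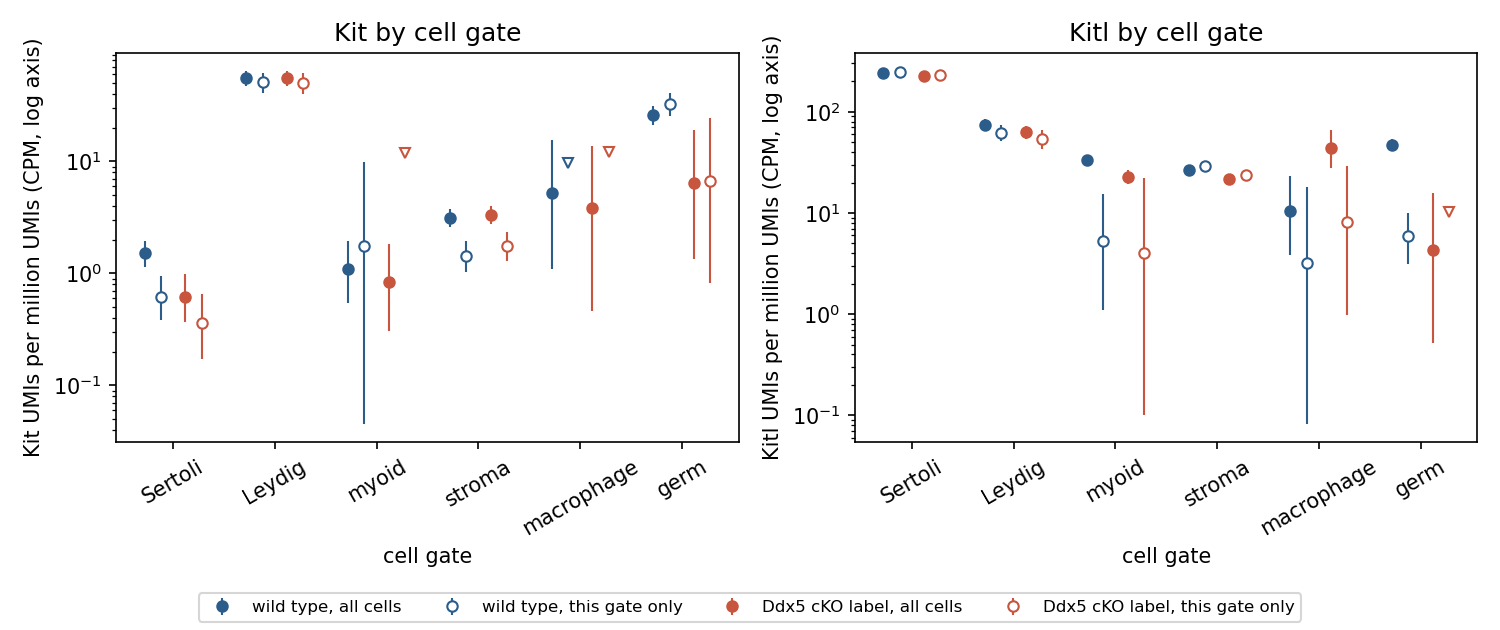
Kit (left) and Kitl (right) CPM on a log axis, by cell gate, with 95% counting intervals. Filled points are all cells of a gate, open points are cells of no other gate, and open triangles are the level of 3 UMIs where no UMI was found. Kitl is highest in the Sertoli gate and Kit in the Leydig gate in both libraries, and Kitl in the wild-type germ gate is 46.7 CPM over all cells and 5.88 CPM in cells of no other gate.

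Kitl was found in nearly every Sertoli cell. A UMI was present in 93.5% of wild-type Sertoli cells (92.4 to 94.5) and in 92.5% of those of the Ddx5 cKO-labelled library (91.2 to 93.8). Cells held from 0 to 26 Kitl UMIs in wild type and from 0 to 20 in the other library, with a median of 3 in each, and 33.8% and 35.7% had 5 or more. Germ cells of no other gate, which are the receptor side of the pair, had a Kitl UMI in 16.7% of 66 wild-type cells at a median depth of 33463.5 UMIs, against 13711 UMIs in Sertoli cells. When every cell was thinned to 5000 UMIs, 68.1% and 64.7% of Sertoli cells kept a Kitl UMI, against 4.47% of those wild-type germ cells.

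Kitl was higher in cells with more Amh, the hormone gene that defines the Sertoli gate, and levelled off inside the gate. Among all filtered cells Kitl was 27.5 CPM and 22.8 CPM (wild type and Ddx5 cKO-labelled library) where no Amh UMI was found, and 141 CPM and 149 CPM at 2 Amh UMIs, just under the limit. At 3 Amh UMIs, just inside it, Kitl was 180 CPM (150 to 216, 51 cells) and 238 CPM (187 to 298, 24 cells). At 4 to 5 it was 207 CPM (184 to 233) and 231 CPM (202 to 264), and at 6 to 10 it was 252 CPM (239 to 266) and 221 CPM (208 to 236), so that the intervals at 3 and at 6 to 10 do not overlap in wild type and overlap in the other library. From 6 Amh UMIs upward all 8 values lay between 220 and 263 CPM. Sertoli cells that carried at least 2 UMIs of the division markers Mki67 and Top2a had 1.02 times the Kitl of those with none in wild type (0.975 to 1.07) and 1.11 times in the Ddx5 cKO-labelled library (1.05 to 1.17).

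**Figure D2:**
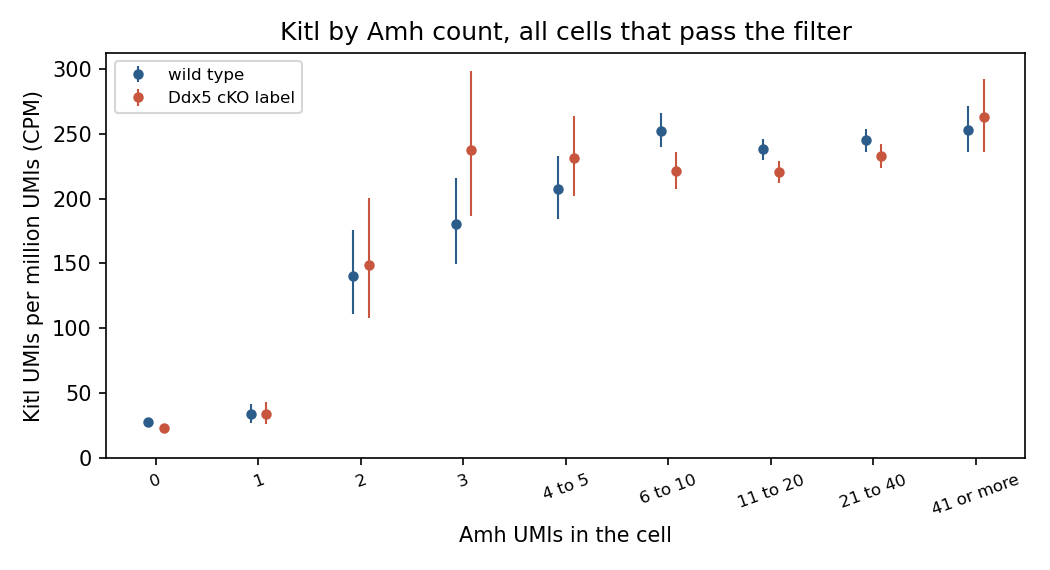
Kitl CPM in all filtered cells against the number of Amh UMIs in the cell, with 95% Poisson intervals, for both libraries. Kitl is under 35 CPM at 0 or 1 Amh UMI, passes 140 CPM at 2 and lies between 220 and 263 CPM from 6 upward.

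Kitl was also found in Leydig cells and stroma. Leydig cells of no other gate kept 62.0 CPM (51.3 to 74.3) and 53.5 CPM (43.3 to 65.4), and those with no Amh UMI had 62.5 CPM and 45.7 CPM. A Kitl UMI was found in 53.7% and 53.1% of Leydig cells, with 24 and 14 UMIs in the highest cell. Both of these cells carried Amh, and Leydig cells without Amh held at most 6 and 8. Stroma of no other gate, the fibroblast-like cells of the interstitium, held 29.4 CPM (27.4 to 31.4, 23.2% of 2857 cells) and 24.0 CPM (22.1 to 26.0, 18.8% of 2491 cells). Macrophages of no other gate held 1 and 2 Kitl UMIs, or 3.22 CPM (0.0814 to 17.9) and 8.13 CPM (0.985 to 29.4), and the latter interval includes the level in stroma. Over all cells of a gate the order was another, since stroma, at 26.6 CPM and 21.9 CPM, was below wild-type germ cells at 46.7 CPM and below macrophages of the Ddx5 cKO-labelled library at 43.8 CPM.

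Sertoli transcripts in these gates were read through Aard, another gene of the Sertoli list. In Sertoli cells there were 14.3 Kitl UMIs per 100 Aard UMIs in both libraries. In cells of no other gate there were 285 and 216 per 100 in Leydig cells and 55.4 and 51.4 per 100 in stroma, several times the Sertoli ratio. In all wild-type germ cells the ratio was 15.6 per 100, and in those of no other gate it was 18.8 per 100. In all myoid cells it was 23.6 and 17.3 per 100. Myoid cells of no other gate had 12 and 14.3 per 100, from 3 and 1 Kitl UMIs. Within stroma of no other gate, cells with a UMI of the fibroblast gene Lum had 1.20 times the Kitl of cells without in wild type (1.05 to 1.38) and 1.44 times in the Ddx5 cKO-labelled library (1.22 to 1.69), a split chosen after values were seen.

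Kitl in the myoid gate, the contractile cells around the tubules, was mostly in cells that also passed another gate, as were 92.9% and 95.2% of myoid cells. Over all myoid cells it was 33.3 CPM and 22.6 CPM. Of the 334 wild-type UMIs, 331 were in cells that also passed another gate, and of 161 in the Ddx5 cKO-labelled library, 160 were. The 54 and 25 myoid cells of no other gate held 3 and 1 Kitl UMIs, or 5.33 CPM (1.10 to 15.6) and 3.99 CPM (0.101 to 22.2).

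The receptor was highest in Leydig cells. Kit reached 55.1 CPM in wild type (47.1 to 64.2, 166 UMIs) and 55.3 CPM in the Ddx5 cKO-labelled library (47.0 to 64.6, 159 UMIs). Germ cells followed in wild type with 25.9 CPM (21.3 to 31.2, 112 UMIs), and the 12 germ cells of the Ddx5 cKO-labelled library held 3 Kit UMIs, or 6.48 CPM (1.34 to 18.9). Leydig cells held 2.13 times the Kit level of germ cells in wild type (1.66 to 2.73) and 8.54 times in the other library (2.87 to 41.9). Stroma had 3.13 CPM and 3.35 CPM, so that Leydig cells held 17.6 and 16.5 times as much. Sertoli cells had 1.52 CPM and 0.622 CPM, myoid cells 1.10 CPM and 0.843 CPM, and macrophages 5.27 CPM and 3.81 CPM from 3 and 2 UMIs. The intervals of stroma and macrophages overlap, as do those of Sertoli and myoid cells. In both libraries Kit met the same 2-fold limit in Leydig cells, as did 2.76% of genes. In wild-type cells of exactly 1 gate the ratio of Leydig to germ cells was 1.56, under that limit.

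Leydig cells were 2.80% of wild-type cells and held 45.9% of Kit UMIs, and 2.89% and 65.4% in the Ddx5 cKO-labelled library. Wild-type germ cells were 1.98% of cells with 30.9% of Kit UMIs. Shares over gates add to more than the whole because a cell may pass more than 1 gate.

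**Figure D3:**
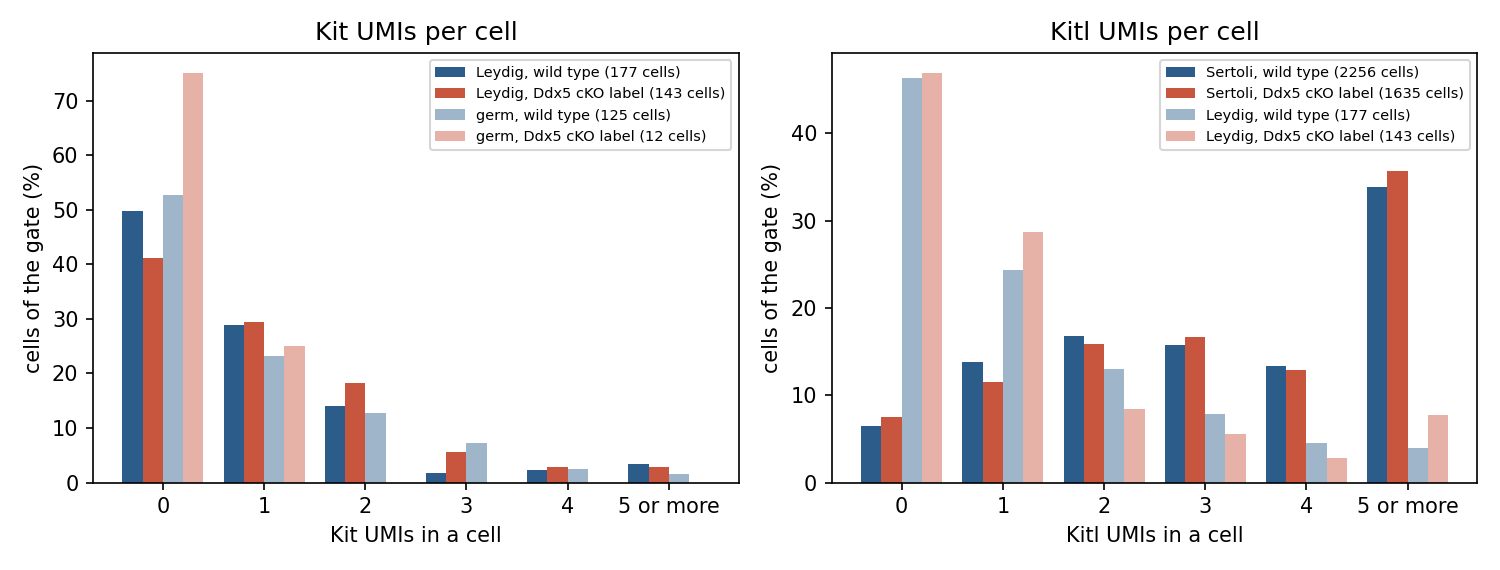
Share of cells (%) with 0 to 5 or more UMIs, for Kit in the Leydig and germ gates (left) and Kitl in the Sertoli and Leydig gates (right), in both libraries. Most Leydig cells hold 0 to 2 Kit UMIs, whereas 33.8% and 35.7% of Sertoli cells hold 5 or more Kitl UMIs.

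Kit was sparse in single cells. A UMI was found in 50.3% of wild-type Leydig cells (42.7 to 57.9) and 58.7% in the Ddx5 cKO-labelled library (50.2 to 66.9), at median depths of 14732 and 17355 UMIs, and the highest cells held 10 and 8. In wild-type germ cells, at a median of 34394 UMIs, 47.2% had a Kit UMI (38.2 to 56.3), and the highest cell held 7. Sertoli cells, which are not known to make the receptor, had one in 1.29% and 0.979% of cells. At 5000 UMIs per cell the shares were 21.4% and 24.1% in Leydig cells, 10.6% in wild-type germ cells, and 0.320% and 0.244% in Sertoli cells. At this depth a cell without a Kit UMI cannot be read as a cell without the transcript.

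Kit was still found in Leydig and germ cells when cells of other gates were left out. Leydig cells of no other gate had 50.9 CPM (41.2 to 62.1) and 50.1 CPM (40.3 to 61.7). The 66 wild-type germ cells of no other gate had 32.6 CPM (25.5 to 41.0, 72 UMIs), below the Leydig interval, and the 8 of the Ddx5 cKO-labelled library had 6.76 CPM (0.819 to 24.4, 2 UMIs). Wild-type germ cells with more than 2 GFP UMIs had 29.8 CPM (22.7 to 38.6, 51 cells) and those without GFP had 20.1 CPM (12.3 to 31.0, 33 cells), a ratio of 1.49 whose interval of 0.881 to 2.61 includes 1. By contrast, 35 of the 56 Kit UMIs of wild-type Sertoli cells were in cells that passed another gate, and Sertoli cells of no other gate had 0.618 CPM and 0.358 CPM.

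Of cells with at least 4 Kit UMIs, 15 of 17 in wild type passed the Leydig gate (10 cells) or the germ gate (5 cells), and 8 of 12 in the Ddx5 cKO-labelled library passed the Leydig gate. Of the 2 and 4 others, 2 and 1 carried the Leydig hormone gene Insl3. Other cell types known for Kit were few here. Cells with at least 3 of the 7 endothelial markers numbered 39 and 34, with 15 and 6 Kit UMIs, or 14.0 CPM (7.86 to 23.2) and 8.38 CPM (3.07 to 18.2). Of them 4 in each library were in no gate, with 2 and 3 Kit UMIs. Cells with at least 3 of the 8 mast cell markers numbered 6 and 3, with 1 and 0 Kit UMIs, and 2 and 1 of these cells were in no gate, with the same 1 and 0 UMIs. In the Leydig gate the summed endothelial markers were 26.2 CPM and 29.2 CPM and the summed mast cell markers 10.6 CPM and 10.4 CPM. In that gate 3 and 5 of the 7 endothelial markers had a UMI, and 2 of the 8 mast cell markers did in each library. Kdr and Emcn, of the endothelial list, had no UMI there in either library. Of the mast cell list, Cpa3, Cma1, Mcpt4, Fcer1a and Ms4a2 were among those with none in either library.

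Kit was low in cells with few UMIs of the steroidogenic genes that define the Leydig gate and above 50 CPM in cells with 100 or more, with uneven levels between. Cells with none of their UMIs had 1.97 CPM and 0.912 CPM, and cells with 1 to 4 had 4.04 CPM and 3.13 CPM. Cells with 5 to 19, just outside the limit, had 34.7 CPM (19.4 to 57.3) from 27 wild-type cells, 3 of them with Kit, and 3.46 CPM (0.0876 to 19.3) from 20 cells of the Ddx5 cKO-labelled library. Only 8 and 7 cells lay between 20 and 99, with 1 and 15 Kit UMIs, or 10.01 CPM (0.253 to 55.7) and 125 CPM (69.8 to 206), the latter above the level in cells with more. At 100 or more the levels were 56.7 CPM (48.4 to 66.0, 169 cells) and 52.3 CPM (44.1 to 61.5, 136 cells).

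**Figure D4:**
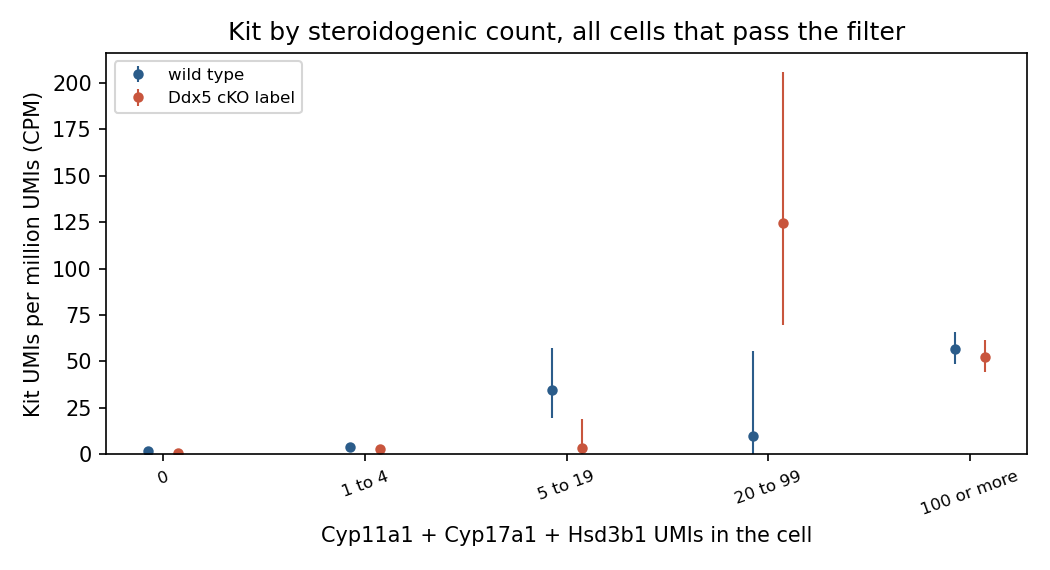
Kit CPM in all filtered cells against the summed UMIs of Cyp11a1, Cyp17a1 and Hsd3b1, with 95% Poisson intervals, for both libraries. Kit is under 5 CPM up to 4 UMIs and above 50 CPM at 100 or more, and the bin of 20 to 99 rests on 8 and 7 cells.

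The little Kit in stroma was unevenly spread. Stroma of no other gate had 1.43 CPM (42 UMIs) and 1.77 CPM (46 UMIs). Of these UMIs, 36 and 40 were in cells with a UMI of Cyp26b1, which encodes a retinoic acid-degrading enzyme, so that Kit was 3.31 CPM and 5.08 CPM with Cyp26b1 and 0.326 CPM and 0.332 CPM without. The ratio was 10.2 in wild type (4.24 to 29.5) and 15.3 in the Ddx5 cKO-labelled library (6.44 to 44.1). Leaving out cells with an Insl3 UMI, it was 6.23 (2.43 to 18.9) and 9.53 (3.79 to 28.5). The 48 and 30 stromal cells with an Insl3 UMI, all under the Leydig limit, had 23.9 CPM and 43.6 CPM of Kit. Per 100 Insl3 UMIs they held 17.4 and 47.2 Kit UMIs, against 3.83 and 6.27 in Leydig cells of no other gate. Both splits were chosen after values were seen.

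Some Leydig cells held UMIs of both receptor and ligand. Of 177 wild-type Leydig cells, 59 had UMIs of both, 30 of Kit only, 36 of Kitl only and 52 of neither. Kitl was found in 66.3% of wild-type Leydig cells with Kit and in 40.9% of those without, which had median depths of 16190 and 13571.5 UMIs. In the Ddx5 cKO-labelled library the same shares were 51.2% and 55.9%, with 43 of 143 cells holding both. The direction thus differed between the libraries, and this difference was not tested. In wild-type germ cells without an Amh UMI, 6 of 70 held both.

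Between the libraries, Kitl in Sertoli cells and Kit in Leydig cells were close. The ratio of the Ddx5 cKO-labelled library to wild type was 0.943 for Kitl in Sertoli cells (0.913 to 0.973) and 1.003 for Kit in Leydig cells (0.802 to 1.25). Among genes with at least 20 UMIs in the gate, 8.08% were at least 1.5-fold lower and 4.33% at least 1.5-fold higher in Sertoli cells, and 5.72% were lower and 5.80% higher in Leydig cells. Neither value passed 1.5-fold. Kitl was 0.846 times the wild-type level in Leydig cells (0.691 to 1.03), 0.823 times in stroma (0.747 to 0.905) and 0.679 times in myoid cells (0.559 to 0.822). Of the 334 and 161 Kitl UMIs of the myoid gate, 220 and 90 were in the 65 and 47 cells with Amh. In myoid cells of no other gate the ratio was 0.749 (0.0143 to 9.33), from 3 and 1 UMIs. Kit in stroma was at 1.07 times (0.820 to 1.39). In stroma 5.27% of genes were lower and 4.31% higher by 1.5-fold, and neither member was.

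**Figure D5:**
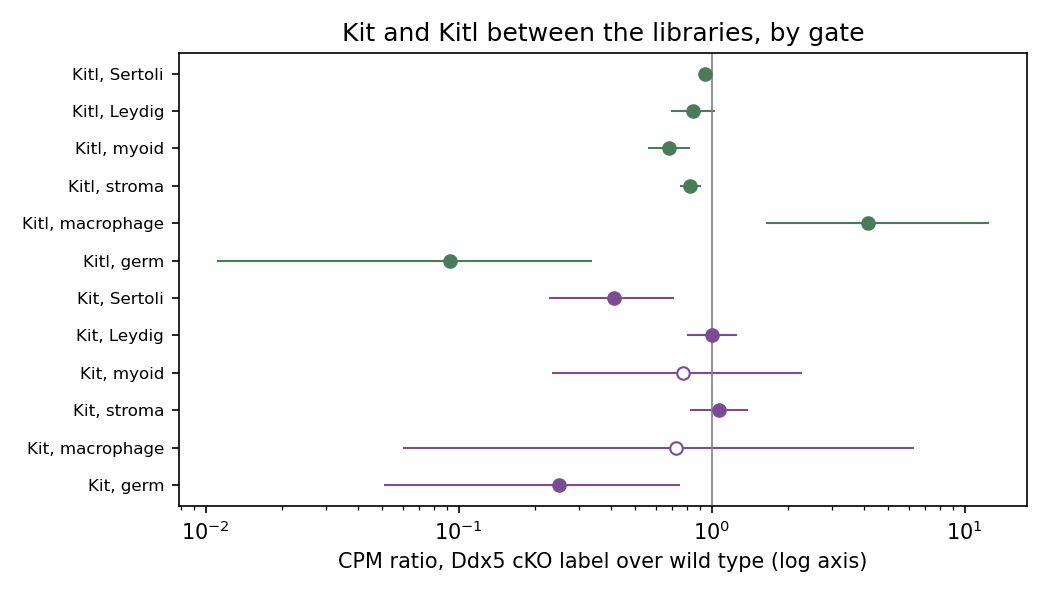
CPM ratio of the Ddx5 cKO-labelled library to wild type for Kitl (green) and Kit (purple) in each gate, on a log axis, with 95% conditional binomial intervals; open points have under 20 UMIs in both libraries together. Kitl in Sertoli cells (0.943) and Kit in Leydig cells (1.003) lie near 1, and the germ and macrophage values have the widest intervals among filled points.

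In germ cells both genes were lower in the Ddx5 cKO-labelled library, as were 54.4% of the genes counted there (16.3% were higher), and the 12 cells of that library limit every value. Kit was 0.250 times wild type (0.0508 to 0.749), from 112 and 3 UMIs, and 0.208 times (0.0247 to 0.777) in cells of no other gate. Kitl was 0.0924 times (0.0111 to 0.338), from 202 and 2 UMIs, and in cells of no other gate it had 13 and 0 UMIs, with an interval of the ratio from 0 to 2.45. Of the 202 wild-type Kitl UMIs, 191 were in the 55 germ cells with an Amh UMI. Germ cells without Amh had 4.99 CPM of Kitl (2.49 to 8.93) and 5.17 CPM (0.626 to 18.7). Their Kit was 27.2 CPM (20.8 to 35.0, 60 UMIs) and 7.76 CPM (1.60 to 22.7, 3 UMIs), a ratio of 0.285. The summed Sertoli markers in the germ gate were 1263 CPM in wild type and 73.4 CPM in the other library, with 8 and 7 of the 8 markers present, and their part in the Kit ratio was not tested.

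In Sertoli cells Kit was 0.410 times wild type (0.227 to 0.709), from 56 and 18 UMIs, among the 8.08% of genes lower by 1.5-fold. The summed germ cell markers in this gate were 93.0 CPM, with 8 of 8 present, and 3.52 CPM, with 4 of 8 present. In Sertoli cells of no other gate the ratio was 0.580 and its interval, 0.244 to 1.29, includes 1. Kitl in macrophages was the 1 value of the pair higher by 1.5-fold, at 4.15 times wild type (1.64 to 12.5), from 6 and 23 UMIs, as were 10.8% of genes. Of the 23 UMIs, 17 were in 4 cells with Amh, and the gate held 24 Amh UMIs in wild type and 73 in the Ddx5 cKO-labelled library. Aard went the other way, with 67 and 30 UMIs, so that there were 8.96 and 76.7 Kitl UMIs per 100 Aard UMIs. The 8 summed Sertoli markers, Amh and Aard among them, were 418 CPM and 726 CPM in the macrophage gate, and their part was not tested. The Kitl ratio was 2.53 in macrophages of exactly 1 gate, from 1 and 2 UMIs, with an interval of 0.132 to 149 that includes 1. It was 1.67 in those with no Amh UMI, a value without an interval.

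The other genes of the pathway were counted by role. KIT signals through adaptors and kinases that lead to the PI3 kinase, RAS and STAT branches. In Leydig cells, where the receptor was highest, 26 of 28 such genes had at least 20 UMIs, 0 were lower by 1.5-fold, where 5.72% of all genes were, and the median log2 ratio was -0.01, against 0.00 over all genes. Akt2, a kinase downstream of PI3 kinase, was 3.99 and 4.18 times higher in Leydig cells than in the next gate, at 289 CPM and 312 CPM, and its ratio between the libraries was 1.08. Of 11 genes that restrain the signal, 9 were countable in Leydig cells and Cblb, a ubiquitin ligase, was higher (ratio 1.51, 0.955 to 2.41), with an interval that includes 1, where 5.80% of all genes were higher. Of 9 transcription factors tied to Kit, 4 were countable in Leydig cells and 2 were lower, Mitf (19 and 8 UMIs, ratio 0.441, 0.167 to 1.06) and Gata1 (22 and 10 UMIs, ratio 0.476, 0.201 to 1.05), both with intervals that include 1. In stroma 28 relay genes were countable and 1 was lower, where 5.27% of all genes were, the phospholipase Plcg2 (70 and 14 UMIs). Plcg2 was highest in wild-type germ cells, at 119 CPM, and the summed germ cell markers in the stroma gate were 39.2 CPM and 12.3 CPM, with 8 of 8 present in each. Their part was not tested. Of 11 restraining genes in stroma 1 was higher, where 4.31% of all genes were, the phosphatase Ptpn6 (31 and 50 UMIs, ratio 1.90, 1.19 to 3.07). Ptpn6 was highest in macrophages, and the summed macrophage markers in the stroma gate were 47.7 CPM and 119.9 CPM. Their part was not tested.

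In Sertoli cells all 28 relay genes were countable, and 1 was lower and 0 higher. That gene was again Plcg2, with 160 and 8 UMIs. Among the 11 restraining genes Prkca, a protein kinase C that phosphorylates KIT, was lower (5.71 CPM and 3.35 CPM, ratio 0.587, 0.457 to 0.750). Of the 9 transcription factors 8 were countable and 5 were lower, against 8.08% of all genes. They were Sohlh1 (142 and 2 UMIs), Sohlh2 (55 and 7), Zbtb16 (91 and 25), Gata1 (139 and 69) and Lmo2 (29 and 11). Sohlh1, Sohlh2 and Zbtb16 are germ cell regulators that, like Plcg2, were highest in the wild-type germ gate, and the same germ cell markers, at 93.0 CPM and 3.52 CPM, stand beside all 4 as beside Kit. In stroma Sohlh1 (78 and 18 UMIs) and Sohlh2 (21 and 1) were lower too.

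In germ cells 26 relay genes were countable, of which 20 were lower and 3 higher, where 54.4% of all genes were lower and 16.3% higher, with a median log2 ratio of -1.56 against -0.73 over all genes. The 3 higher were Jak2 (34.0 CPM and 64.8 CPM), Stat5a (22.7 CPM and 34.5 CPM) and Mapk3 (115 CPM and 203 CPM), kinases and a transcription factor of the STAT and MAP kinase branches. Stat5a had an interval that includes 1 (0.838 to 2.60). In the same gate the summed Sertoli markers were 1263 CPM and 73.4 CPM and the 8 summed cell division markers 1153 CPM and 214 CPM, and their part in these counts was not tested. Among the lower genes, the RAS GTPase Hras had 632 and 1 UMIs, the kinase Map2k2 1139 and 19, and the Src-family kinase Fyn 710 and 6. The catalytic PI3 kinase subunit Pik3ca had 370 and 2 (ratio 0.0504), the adaptor Shc1 121 and 1 (ratio 0.0771) and the phosphatase Ptpn11 305 and 5 (ratio 0.153). Of 10 countable restraining genes 6 were lower and 2 higher. Ptpn6, which was highest in macrophages, was higher with 32 and 21 UMIs (ratio 6.12, 3.36 to 10.95), while the summed macrophage markers in the germ gate were 97.6 CPM and 6.48 CPM, with 7 and 2 of the 7 present. Sh2b3, an adaptor, had 138 and 0 UMIs. Of 6 countable regulators 3 were lower and 1 higher. Sohlh1, a germ cell factor that acts on Kit, stood at 110 CPM and 121 CPM (ratio 1.10, 0.820 to 1.46), and Sohlh2 had 180 and 0 UMIs.

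Of the proteases that can cut the membrane-bound ligand, Adam17 was 31.8 CPM and 28.5 CPM in Sertoli cells (ratio 0.898) and did not pass 1.5-fold. Mmp9 was highest in germ cells, at 86.1 CPM and 13.0 CPM, and it was also lower in Sertoli cells (122 and 10 UMIs, ratio 0.105, 0.0490 to 0.199) and in stroma (55 and 7 UMIs). The germ cell markers stand beside it in both gates as above. In germ cells Adam17 was lower as well (176 and 4 UMIs, ratio 0.212). The mast cell chymase Cma1 was highest in wild-type stroma, with 178 UMIs there and 5 in stroma of the other library, where the 8 mast cell markers, Cma1 among them, summed to 18.4 CPM and 2.41 CPM, with 7 and 5 present. Among ligands of the same receptor class, Pdgfa was like Kitl 2-fold highest in Sertoli cells, at 375 CPM and 342 CPM, and lower in germ cells (448 and 6 UMIs, ratio 0.125), beside the Sertoli markers given above for that gate. Pdgfd (ratio 1.92, 1.41 to 2.64) and the receptor Pdgfra (ratio 1.53, 1.40 to 1.66) were higher in Sertoli cells of the Ddx5 cKO-labelled library, where the 6 stromal markers summed to 657 CPM against 438 CPM in wild type, and their part was not tested. Of the receptors, Csf1r was highest in macrophages at 798 CPM and 583 CPM, and Kit was the 1 receptor of the 5 that was highest in Leydig cells.

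The genes with the pattern most like each member were read over 12 points, the 6 gates in each library, which share depth and cells between overlapping gates. For Kitl they included Nt5c3b, a nucleotidase (Pearson r = 0.98), Slc27a3, of a fatty acid transporter family (r = 0.98), Trim62, a ubiquitin ligase (r = 0.97), and Gm26782 (r = 0.96). For Kit they were Zmat5 (r = 0.97), Slc4a8, a bicarbonate transporter (r = 0.96), Cops7a, a subunit of the COP9 signalosome (r = 0.95), Mapt, which encodes tau (r = 0.94), and 1110008P14Rik (r = 0.94). They came from 14302 genes with at least 200 UMIs, and Kit and Kitl had an r of -0.04 with each other.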

How the data were processed

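The authors counted UMIs with Cell Ranger 3.1.0 on GRCm38 and used Seurat 3.1.5, as named in the submitters' processing notes, on a reference extended by the 2 transgenes. The deposited table holds raw UMI counts per gene and barcode, 30451 genes by 12186 barcodes, before any filter on cells, with totals of 84263163 UMIs (wild type) and 67558106 UMIs (Ddx5 cKO-labelled library). Here UMIs were summed per gate and library and scaled to CPM. Precision is that of the sums, and a 0 was set at 3 UMIs, a round limit in place of the exact one. Ratios, intervals and calls were tested on simulated sums. The members and lists were chosen with earlier results of these data known. Named genes were Kit, Kitl, gate genes, list genes past 1.5-fold with an interval off 1 (in germ cells, where these are many, a selection made after values were seen), list genes 2-fold highest in the gate of Kit or Kitl, and the 5 most alike over log2(CPM + 1), and results on 2 of the genes so chosen are not reported here. Cblb, Mitf and Stat5a, past 1.5-fold with an interval that includes 1, complete a count, and Csf1r is named for comparison with Kit. List genes past the limit in myoid cells and macrophages are not described. Scrublet, run on each library in scanpy 1.11.5, marked 4.49% and 5.98% of cells as doublets, which stayed in. Alternatives changed the cell filter, gates, doublets, CPM total, mean per cell, thinning, UMI minimum and correlation. The software was SciPy 1.17.1, NumPy 2.4.6, pandas 2.3.3 and Python 3.11.15.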

Additional observations from a re-analysis of the deposited data

Results flagged for a closer look

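Kitl in the macrophage gate went the other way from the other 5 gates. It was 4.15 times the wild-type level in the Ddx5 cKO-labelled library, while the ratios in Sertoli, Leydig, myoid, stroma and germ cells were all below 1. The difference between gates was not tested, and the value rests on 6 and 23 UMIs in 31 and 23 cells, with 24 and 73 Amh UMIs and 67 and 30 Aard UMIs in the same cells. The 8 summed Sertoli markers, Amh and Aard among them, were 418 CPM and 726 CPM there. The Kitl ratio was 2.53 in cells of exactly 1 gate (0.132 to 149, from 1 and 2 UMIs) and 1.67 without cells holding Amh.

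Cells outside every gate, which enter no comparison between gates, held both genes. Kitl was 85.5 CPM in the 214 wild-type cells and 56.2 CPM in the 162 cells of the Ddx5 cKO-labelled library, and Kit was 6.66 CPM and 14.0 CPM, all above what 3 UMIs would give. Ungated cells with 1 or 2 Amh UMIs, just under the Sertoli limit, had 224 CPM (40 cells) and 170 CPM (30 cells) of Kitl.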

How the results depend on the processing

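No paired analysis was possible because the barcodes carry no sample number, and for the same reason no sample could be left out. Of 129 alternative values, 100 stayed within the counting interval or limit, 28 moved and 1 reversed. The ratio of Sertoli to Leydig Kitl (3.26 in wild type and 3.63 in the Ddx5 cKO-labelled library) was 2.27 and 2.43 under a stricter filter (3000 genes, 5% mitochondrial UMIs), 4.02 and 4.30 in cells of 1 gate, 3.99 and 5.15 without doublets, and 3.86 and 4.98 without cells holding Amh outside the Sertoli gate, an alternative chosen after seeing the data. The ratio of Leydig to stroma Kit (17.6 and 16.5) was 22.7 and 23.7 with the stricter filter, 35.5 and 28.3 in cells of 1 gate, 26.0 and 27.4 as a mean per cell, and 26.6 in wild type with doubled limits. That of Leydig to germ Kit in wild type (2.13) was 3.49 with the stricter filter and 1.56 in cells of 1 gate. The stricter filter left 40 of 177 and 28 of 143 Leydig cells, and 45 of 125 wild-type germ cells. It left 2154 of 2256 and 1591 of 1635 Sertoli cells. Thinning to 5000 UMIs moved the share of Sertoli cells with Kitl to 68.1% and 64.7% and of Leydig cells with Kit to 21.4% and 24.1%. Genes past 1.5-fold, 2039 in Sertoli and 1295 in Leydig cells, were 4577 and 3056 with at least 5 UMIs and 594 and 206 with at least 100, as more or fewer genes were counted. Kitl in germ cells between the libraries (0.0924) reversed to 1.04 in cells without Amh, an alternative chosen after seeing the data, and was 0 in cells of exactly 1 gate, from 13 and 0 UMIs. Ranked correlation shared 1 of the 5 genes most like Kit and 1 of the 5 most like Kitl. The cause of the other moves was not tested. The germ ratios are limited by 12 cells.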

Other observations

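Pax8 encodes a transcription factor of the kidney, thyroid and epithelium of the reproductive ducts. In wild type 25 cells had at least 2 Pax8 UMIs, with 137 CPM of Kitl (107 to 173) and 21.3 CPM of Kit (10.6 to 38.1, 11 UMIs), and in the Ddx5 cKO-labelled library 0 cells had as many. The 12 wild-type cells in no gate with a Pax8 UMI had 351 CPM of Kitl (263 to 460, 53 UMIs), with a Kitl UMI in 10 of them and no Kit UMI. All 11 Kit UMIs given above were therefore in cells that passed a gate. No ungated cell of the 162 in the other library had a Pax8 UMI. These cells were chosen after values were seen, and whether they are part of the testis was not tested.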
